A study of Mus musculus with 9 samples.

Results

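The early response of BV2 cells to bacterial lipopolysaccharide (LPS) was followed from untreated cells to 1 h of treatment. BV2 is an immortalized line of mouse microglia, the resident macrophages of the brain. The 3 untreated libraries (time 0) were compared with the 3 libraries made after 1 h with LPS at 200 ng/ml, which makes 6 of the 9 libraries of the series, and the remaining 3 were made after 12 h. The comparison covers the 5643 genes with a mean of at least 1 FPKM (fragments per kilobase of transcript, scaled to the mapped fragments) over the 9 libraries, out of 6462 genes in the deposited table. Every gene in that table carries the authors' flag for a difference among these 9 libraries, so shares of changed genes do not describe the whole transcriptome. Just inside the limit on level lay Hhat, Zfp759 and Fas, with means of 1.0051, 1.0059 and 1.0081 FPKM, and just outside it Greb1, Wdpcp and Spn, with 0.9911, 0.9939 and 0.9956. No untreated cells were taken at 1 h, so LPS and the time in culture cannot be told apart. Whether replicate libraries were grown as separate cultures is not in the labels, and p-values may therefore rest on technical spread alone.

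LPS is sensed by Toll-like receptor 4 together with CD14, and its adaptors switch on IκB kinase and the MAP kinases. NF-κB and AP-1 factors then drive a first wave of transcripts that needs no new protein, among them cytokine and chemokine genes and the feedback inhibitors that later end the response. Over the same minutes a transcript can fall only as fast as it decays, so short-lived RNAs are the ones in which a stop in transcription shows early. The title of the series concerns the kinase PLK2, the chaperone HSP90α and IKKβ in microglial activation.

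The listed FPKM values of a library summed to 195872 to 198075 in untreated cells and to 203515 to 205413 at 1 h. Relative depths estimated from the steps in low values ran from 1 to 1.171 times that of untreated library 1, and the absolute depth is unknown. Across genes, log2(FPKM + 1) correlated at 0.9981 to 0.9986 (Pearson) within groups and at 0.9669 to 0.9698 between untreated and 1 h libraries, where genes are not independent replicates. Of 16 microglia and macrophage markers, 11 were listed, and their summed level was 1535 to 1663 FPKM in untreated libraries and 1469 to 1507 at 1 h. Of the lists of astrocyte, neuron, oligodendrocyte, endothelial, fibroblast and lymphocyte markers, Olig2 was the single listed member, at 0 to 0.0841 FPKM in untreated libraries and 0 at 1 h. In bulk RNA, fewer cells of a kind and less RNA per cell cannot be told apart.

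Within 1 h, decreases outnumbered increases, and their median sizes were close, but more increases than decreases were at least 2-fold. Expression was higher in 1361 genes (24.1% of those tested) and lower in 1969 (34.9%), and 59.0% were called in either direction (limma, Benjamini-Hochberg adjusted p under 0.05, as for every gene said below to have risen or fallen). A median increase was 0.22 on the log2(FPKM + 1) scale, with quartiles of 0.15 and 0.39, and a median decrease was -0.24, with quartiles of -0.37 and -0.17. Under 0.5 in size were 1088 of the increases (79.9%) and 1728 of the decreases (87.8%). At the other end, 46 genes rose by at least 2 on the log2 scale, up to 6.08 for Nfkbiz, whereas 2 genes fell by as much, Ier5l (-2.23) and Ddit4 (-2.08). The median over all tested genes was -0.03.

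At least 2-fold in FPKM + 1, 122 genes (2.16%) rose and 33 (0.585%) fell, and the 3 libraries of each group did not overlap in any of these. By comparison, 26.8% of all tested genes lay higher and 38.2% lower at 1 h with no overlap. The 122 increases started from a median of 6.86 FPKM and reached 27.4. Of them, 10 were below 1 FPKM in untreated cells and passed the limit on level only through LPS libraries. Of these 122, 57 belonged to 8 lists of inflammatory and immediate early genes and 65 did not. The 33 decreases went from a median of 8.46 to 3.22 FPKM, and 30 of the 33 were outside those lists. With 0.1 added in place of 1 before taking logs, 71 genes fell at least 2-fold rather than 33, and among genes averaging at least 5 FPKM 20 did.

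In absolute terms the gains were concentrated in a few abundant transcripts. Summed over all listed genes, mean FPKM rose by 16800 in 2622 genes, and 24.9% of that sum came from 8 of them: Ccl3, Ccl4, Fth1, Tnf, Ier3, Nfkbiz, Ccl2 and Sdc4. Ccl3 stood at 339, 357 and 364 FPKM in untreated libraries and at 1937, 1815 and 1803 at 1 h. This chemokine gene was therefore already abundant before LPS, unlike Tnf, which went from 14.3, 12.8 and 13.7 to 351, 349 and 348 FPKM. Ccl3 and Ccl4 overlap in the RefSeq annotation, so reads may have been split between them. Losses summed to -9430 FPKM over 3802 genes, and the 8 largest made up 12.9%. They were the glycolytic genes Eno1, Pgk1, Ldha, Pkm and Tpi1, followed by Vim (a filament protein), Scd2 (a fatty acid desaturase) and Apoe (a lipid carrier). Pgk1 fell from 909, 903 and 892 to 672, 650 and 648 FPKM, to 72.9% of its untreated mean. Vim fell from 557, 529 and 536 to 418, 431 and 447 FPKM. For Fth1 (0.13) and Eno1 (-0.19), which were the most abundant transcripts shown in the plot of difference against level, the log2 difference was 0 under quantile normalization, which sets equal ranks to equal values.

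**Figure D1:**
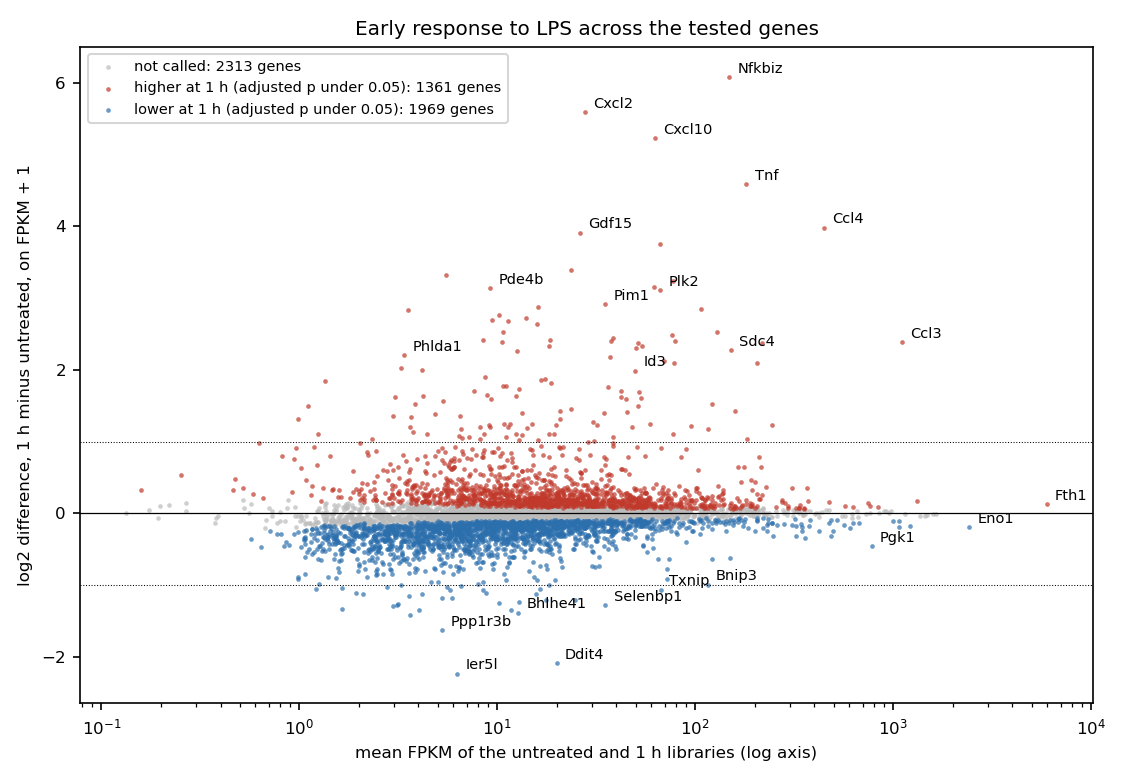
Log2 difference on FPKM + 1 (1 h minus untreated, vertical axis) against the mean FPKM of the 6 libraries (log axis) for the 5643 tested genes, in red where higher, blue where lower and grey where not called. Dotted lines mark 2-fold; the points above reach 6.08, those below -2.23, and 2313 genes were not called.

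Outside the inflammatory lists, the largest increase was that of Gdf15, a secreted stress-response member of the TGF-β superfamily. Its transcripts stood at 2.78, 2.19 and 2.16 FPKM in untreated libraries and at 49.8, 47.9 and 51.3 at 1 h, 20.9 times the untreated mean (log2 difference 3.91 ± 0.074 SE). Pde4b, which encodes a phosphodiesterase that degrades cAMP, went from 0.967, 1.0 and 1.27 to 17.8, 17.8 and 16.4 FPKM (3.14 ± 0.059). No untreated library came near the lowest 1 h library in either gene. Plk2, the polo-like kinase gene of the series title, ranked next, at 12.5, 12.7 and 13.9 FPKM without LPS and 116, 122 and 123 at 1 h (3.11 ± 0.05). Pim1, a serine/threonine kinase that promotes survival, went from 7.75, 6.96 and 7.72 to 60.7, 62.7 and 65.0 FPKM (2.91 ± 0.042). For the 20 largest increases outside those lists, adjusted p ran from 5.75e-17 (Sdc4) to 9.57e-11 (Rab20) by limma with Benjamini-Hochberg adjustment.

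The increases included RNA-binding proteins that destabilize transcripts. Zfp36 encodes tristetraprolin, which binds AU-rich elements in cytokine mRNAs and brings on their decay. It rose from 17.8, 15.7 and 17.9 to 86.9, 90.2 and 92.8 FPKM (2.33 ± 0.053). Zc3h12c, of the Regnase family of RNA-degrading zinc finger proteins, rose from 5.34, 5.36 and 4.83 to 32.8, 31.1 and 31.4 FPKM (2.41 ± 0.044). In the list of 17 mRNA decay regulators 10 rose (58.8%, against 24.1% of all tested genes) and 3 fell (17.6%, against 34.9%), with a median of 0.24. Btg1 (0.91) and Btg3 (0.90), of the family that recruits the CCR4-NOT deadenylase, rose too, while Tob1 (-0.36) of the same family and Zfp36l1 (-0.31), a relative of Zfp36, fell. Btg2 (2.41), a relative of Btg1, and Zc3h12a (2.7), a relative of Zc3h12c, rose more than these relatives but were counted in the inflammatory lists.

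Several large increases were in genes of the cell surface and cytoskeleton. Sdc4, a heparan sulfate proteoglycan that acts with integrins, went from 52.3, 50.8 and 49.9 to 256, 246 and 252 FPKM (2.28 ± 0.028), which put it among the 8 largest gains in FPKM. Itga5, the α chain of the fibronectin receptor, went from 7.39, 7.55 and 8.16 to 27.7, 30.3 and 30.6 FPKM (1.81 ± 0.054). Marcksl1, an actin-binding protein, rose from a mean of 28.9 ± 1.16 to 127 ± 8.86 FPKM (SD, n = 3, as throughout). Rhob, a small GTPase of the endosome, rose from 20.2 ± 1.15 to 64.1 ± 1.26 FPKM. Adamts1, a secreted metalloprotease, rose from 6.93 ± 0.54 to 28.0 ± 0.778 FPKM, and Plau, the urokinase plasminogen activator, from 56.5 ± 1.63 to 133 ± 5.42.

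Cflar, which blocks caspase-8 activation, went from 6.42, 6.92 and 6.51 to 27, 26.2 and 26.4 FPKM (1.86 ± 0.043). Id3, a helix-loop-helix protein without a DNA-binding region that titrates E proteins, went from 19.6, 21.2 and 17.6 to 77.9, 82.4 and 79.4 FPKM (1.99 ± 0.062). Its relative Id2 fell from 45.6 ± 2.59 to 33.2 ± 0.866 FPKM. Ets2, a transcription factor downstream of MAP kinases, rose from 19.1 ± 0.269 to 64.9 ± 1.17 FPKM. Trib1, a pseudokinase that directs ubiquitination of C/EBP factors, rose from 3.03 ± 0.291 to 12.2 ± 0.537 FPKM. Rab20, a small GTPase of endosomes and phagosomes, rose from 3.07 ± 0.162 to 14.2 ± 0.492 FPKM. The remaining members of the 20 largest were Slfn2 (2.40), Trim13 (2.26), Phlda1 (2.20), Rasgef1b (2.18) and C5ar1 (1.76). Trim13 overlaps the long noncoding gene Dleu2 and Kcnrg, so its reads are uncertain.

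**Figure D2:**
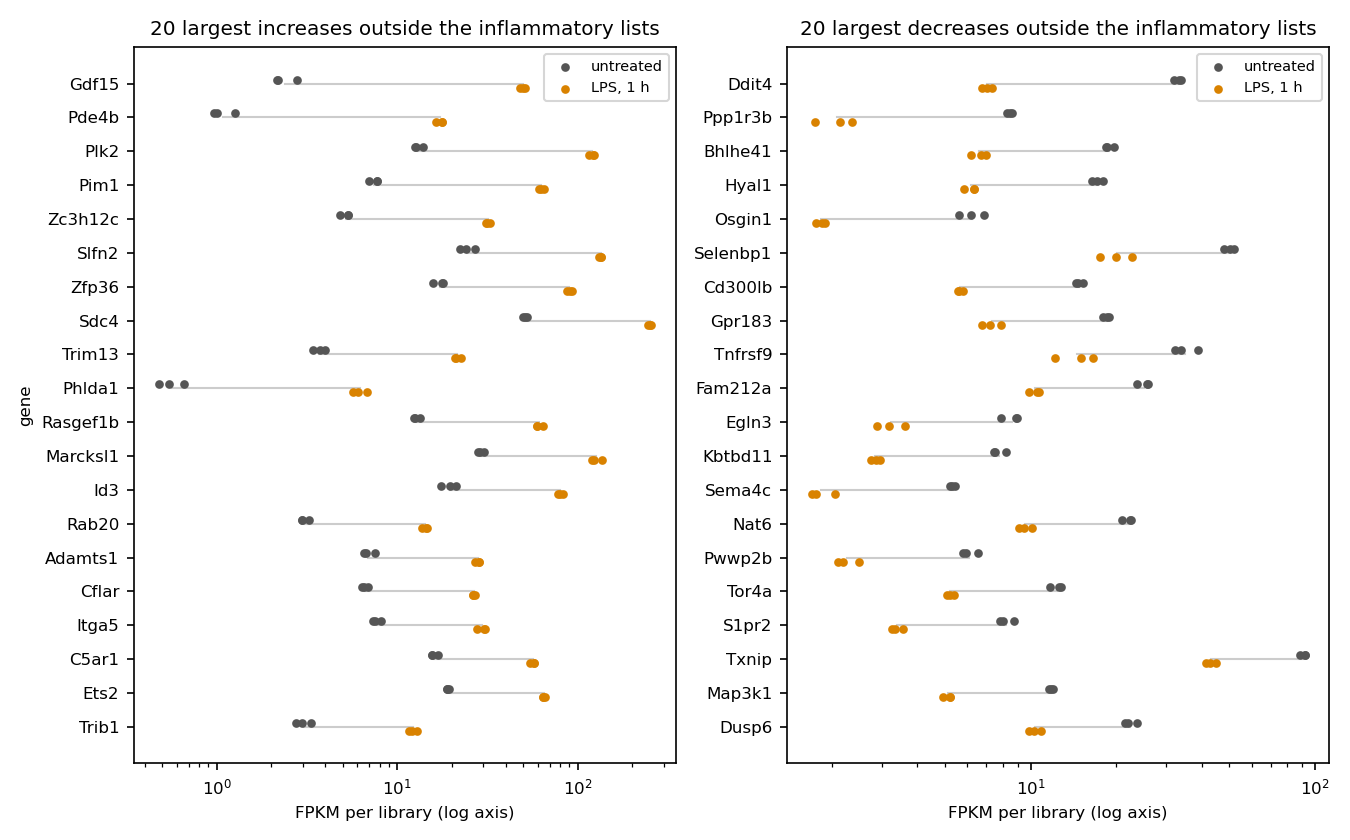
FPKM in each of the 3 untreated (grey) and 3 LPS 1 h libraries (orange), on log axes, for the 20 largest increases (left) and the 20 largest decreases (right) outside the inflammatory lists; grey lines join the group means. In all 40 genes the points of the 2 groups stand apart, with 1 h means of 3.4 times (Ets2) to 20.9 times (Gdf15) the untreated mean at left and of 21.4% (Ddit4) to 47.3% (Txnip) at right.

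The decreases outside the inflammatory lists were led by Ddit4, which encodes REDD1, an inhibitor of mTORC1 that is induced by hypoxia, stress and glucocorticoids. It stood at 33.2, 33.8 and 31.9 FPKM in untreated libraries and at 7.04, 6.74 and 7.33 at 1 h, 21.4% of the untreated mean (-2.08 ± 0.041), and at 20.6 ± 0.715 FPKM in the 12 h libraries. Ppp1r3b, the subunit that targets protein phosphatase 1 to glycogen, went from 8.63, 8.49 and 8.26 to 2.14, 1.74 and 2.35 FPKM (-1.62 ± 0.067). Osgin1, an oxidative stress response gene, went from 6.87, 5.6 and 6.19 to 1.76, 1.9 and 1.85 FPKM (-1.34 ± 0.065). In all of these genes every 1 h library lay below every untreated library. Selenbp1, a methanethiol oxidase, fell from 50.1 ± 2.07 to 20.1 ± 2.68 FPKM and stood at 6.54 ± 0.804 at 12 h. Txnip, which binds thioredoxin and limits glucose uptake, was the most abundant of the 33 genes at least 2-fold lower, and fell from 91.9, 91.9 and 88.8 to 42.9, 44.7 and 41.3 FPKM (-1.06 ± 0.036). For the 30 largest decreases outside the inflammatory lists, adjusted p ran from 9.65e-15 (Ddit4) to 1.33e-07 (Cdkn1b) by limma with Benjamini-Hochberg adjustment.

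Several decreases were in genes of signaling proteins. Dusp6, the phosphatase that acts on ERK, fell from 22.1, 21.5 and 23.7 to 10.9, 9.89 and 10.3 FPKM (-1.05 ± 0.044). Of the other dual-specificity phosphatases on the list, Dusp7 (-0.75), Dusp18 (-0.39) and Dusp22 (-0.30) fell as well. By contrast, Dusp16 rose from 5.55 ± 0.204 to 19.4 ± 0.269 FPKM, Dusp4 from 24.1 ± 0.288 to 65.9 ± 0.705 and Dusp5 from 7.55 ± 0.441 to 17.4 ± 1.67. In this list of 13 genes, headed MAPK phosphatases and Sprouty proteins, 7 rose (53.8%, against 24.1% of all tested genes). Another 4 fell (30.8%, near the 34.9% of all). Not counted there were Dusp1 (2.39) and Dusp2 (2.4), which were placed among the immediate early genes and rose more than Dusp16. Map3k1, a kinase upstream of JNK, fell from 11.8 ± 0.195 to 5.12 ± 0.168 FPKM. Tnfrsf9, the receptor 4-1BB, fell from 32.1, 33.7 and 38.7 to 12.2, 15 and 16.6 FPKM, whereas Tnfsf9, its ligand, rose from 22.5 ± 0.858 to 130 ± 0.505 FPKM. Receptor and ligand thus moved in opposite directions, and at 12 h they stood at 37.5 ± 3.08 and 29.6 ± 1.11 FPKM. Sema4c, a semaphorin, fell from 5.32 ± 0.119 to 1.84 ± 0.194 FPKM and stood at 11.6 ± 0.0931 at 12 h.

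Hyal1, a lysosomal hyaluronidase, and Nat6, an N-terminal acetyltransferase of actin, fell to 35.9% and 43.5% of their untreated means. These genes overlap each other and Hyal3 in the annotation, so the falls may not be separate. Similarly, Gpr183 lies within the span of Ubac2 and Lpar6 within that of Rb1. Cdkn1b, the cell cycle inhibitor p27, went from 9.64, 11.9 and 11.4 to 4.6, 4.76 and 5.78 FPKM (-0.98 ± 0.08). Hhex, a homeobox factor of blood and endothelial lineages, fell from 25.9 ± 0.632 to 13.1 ± 0.633 FPKM. Tifab, which restrains the NF-κB activator TIFA, fell from 6.44 ± 0.543 to 2.84 ± 0.174 FPKM. Mylip, a ubiquitin ligase for the LDL receptor, fell from 6.93 ± 0.236 to 3.11 ± 0.453 FPKM. Others among the 30 were Fam212a (-1.20), Kbtbd11 (-1.18), Pwwp2b (-1.12), Tor4a (-1.11), Fgf11 (-0.95) and Pla2g15 (-0.93), a lysosomal phospholipase.

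Targets of the hypoxia-inducible factors fell as a group. HIF is held in check by prolyl hydroxylases, which are themselves HIF targets and make the protein unstable when oxygen is present. Of 23 tested targets outside glycolysis, 18 fell (78.3%, against 34.9% of all tested genes) and 1 rose, with a median of -0.37. The prolyl hydroxylase gene Egln3 went from 8.96, 8.91 and 7.88 to 2.88, 3.18 and 3.61 FPKM (-1.18 ± 0.068), and Egln1 from 41.9, 38.2 and 38.8 to 24.1, 25.6 and 27.1 (-0.61 ± 0.049). Bnip3, a mitophagy receptor, was the most abundant of the 30 named decreases, at 157, 148 and 156 FPKM in untreated and 75, 72.7 and 83.9 in 1 h libraries (-0.99 ± 0.05). Its relative Bnip3l fell by 0.37. Ndrg1, a stress-response gene, fell from 91.5 ± 4.22 to 53.2 ± 0.44 FPKM, and Ankrd37 from 21.0 ± 1.08 to 10.6 ± 0.715. The member that rose was Hif1a itself, from 39.2, 41.5 and 43.0 to 47.7, 47.4 and 50.4 FPKM (0.23 ± 0.037, or 0.15 under quantile normalization). Vegfa, a textbook HIF target, was not called, at 8.24 ± 0.572 and 8.73 ± 0.546 FPKM. Kdm3a (-0.15) lost its call without untreated library 1 (-0.12, adjusted p = 0.0519 by limma). Oxygen was not measured, and its part in these values was not tested.

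Genes of carbohydrate storage and use fell alongside. Glycogen is built by glycogen synthase and branching enzyme and opened by phosphorylase. Of 13 glycogen genes, 9 fell (69.2%, against 34.9% of all tested genes) and none rose, with a median of -0.19. Besides Ppp1r3b, glycogen synthase Gys1 fell from 26.3, 25.2 and 26.5 to 15.7, 16.2 and 16.5 FPKM (-0.66 ± 0.035). The phosphoglucomutase gene Pgm2 fell from 62.9 ± 1.12 to 45.4 ± 1.69 FPKM, and the branching enzyme Gbe1 from 15.3 ± 0.793 to 11.7 ± 0.547. Slc37a4, the transporter that carries glucose 6-phosphate into the endoplasmic reticulum, fell from 10.1 ± 0.634 to 5.95 ± 0.457 FPKM. In the pathway annotation that comes with the deposited table, 259 pathways had at least 10 tested genes, and the 4 lowest medians were those of starch and sucrose, fructose and mannose, and galactose metabolism and of carbohydrate digestion and absorption. In starch and sucrose metabolism 12 of 13 genes fell and none rose (median -0.28), in fructose and mannose metabolism 12 of 15 fell and 1 rose (-0.25), and in galactose metabolism 12 of 15 fell and none rose (-0.24). In glycolysis and gluconeogenesis 21 of 27 fell (77.8%) and none rose (-0.19). The pentose phosphate pathway had 10 of 16 lower (62.5%) and 1 higher (-0.18). These pathways share genes and are not separate observations.

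Oxidation of fatty acids showed the same direction at smaller size. Of 24 genes of fatty acid oxidation and peroxisomes, 18 fell and 1 rose, with a median of -0.17. Among all tested genes, 34.9% fell and 24.1% rose. Abcd2, which imports very long chain fatty acids into peroxisomes, went from 8.78, 8.76 and 7.86 to 5.57, 5.84 and 5.55 FPKM (-0.51 ± 0.054). The member that rose was Pex11a, of a family that divides peroxisomes, from 1.98 ± 0.1 to 2.78 ± 0.147. Acox3, a peroxisomal oxidase, fell by 0.37, and by 0.24 under quantile normalization.

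The FOXO factors switch on genes that slow growth when insulin and PI3 kinase signaling is low. Of 21 tested FOXO targets and growth brakes, 13 fell (61.9%, against 34.9% of all tested genes) and 3 rose, with a median of -0.20. With a mean of at least 5 FPKM, 14 were left, of which 8 fell. Pik3ip1, an inhibitor of PI3 kinase, went from 5.11, 4.75 and 4.62 to 1.32, 1.48 and 1.41 FPKM (-1.28 ± 0.064). Together with Ddit4, Txnip and Cdkn1b it made up the 4 largest decreases of the list. Tsc22d3, the glucocorticoid-induced leucine zipper, fell from 2.93, 2.57 and 2.8 to 1.0, 1.13 and 1.39 FPKM. The factors Foxo1 (-0.33), Foxo3 (-0.29) and Foxo4 (-0.19) fell as well, the last without a call when untreated library 2 (-0.16) or 1 h library 2 (-0.14) was left out. Trib1 and Bcl6, a transcriptional repressor that went from 4.3 ± 0.348 to 10.1 ± 0.426 FPKM, rose against the list, as did Rictor (0.24), a subunit of mTORC2.

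G protein-coupled receptors changed in both directions. Of 23 tested receptors for chemoattractants, nucleotides and lipids, 13 fell (56.5%, against 34.9% of all tested genes) and 7 rose (30.4%, against 24.1%), with a median of -0.27, and 9 changed at least 2-fold. With a mean of at least 5 FPKM, 8 of 14 fell and 6 rose. Among the decreases, Gpr183, a receptor for oxysterols, went from 18.6, 18.0 and 18.9 to 7.89, 7.21 and 6.76 FPKM (-1.24 ± 0.059). S1pr2, a sphingosine 1-phosphate receptor, went from 8.76, 7.98 and 7.78 to 3.33, 3.57 and 3.25 FPKM (-1.07 ± 0.052), and S1pr1 also fell (-0.47). The lysophosphatidic acid receptors Lpar6 (-1.01) and Lpar5 (-0.59) fell too. The fractalkine receptor Cx3cr1 went from 6.7, 6.2 and 5.9 to 3.05, 3.46 and 3.36 FPKM (-0.76 ± 0.071), and Ccr1, a receptor for the CCL3 that rose, from 3.74, 4.07 and 4.36 to 1.16, 1.66 and 1.64 (-1.03 ± 0.119). The increases were led by the complement receptors C5ar1, from 15.5, 15.6 and 16.9 to 54.4, 57.6 and 57.3 FPKM (1.76 ± 0.047), and C3ar1, from 25, 24.1 and 24.1 to 53.7, 52.1 and 50.1 (1.06 ± 0.035). Hcar2, the receptor for niacin and β-hydroxybutyrate, rose from 21.8 ± 1.2 to 67.7 ± 4.07 FPKM, and Ptafr, for platelet-activating factor, from 5.2 ± 0.226 to 13.2 ± 0.346.

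Other surface molecules of myeloid cells mostly fell. Of 37 inhibitory and activating receptors, 22 fell (59.5%, against 34.9% of all tested genes). Another 9 rose (24.3%, near the 24.1% of all), and the median was -0.19. Cd300lb, an activating member of the CD300 family, went from 15.3, 14.4 and 14.7 to 5.59, 5.55 and 5.78 FPKM (-1.25 ± 0.042). Vsir, the checkpoint molecule VISTA, went from 21.3, 20.1 and 19.6 to 10.2, 10.4 and 10.8 FPKM (-0.89 ± 0.045), and it overlaps Cdh23 in the annotation. The receptor genes Lilr4b (1.40) and Lilrb4a (0.79) rose, but they are near-identical copies whose reads may have been shared. Of 24 integrin and adhesion genes, 18 fell and 2 rose, with a median of -0.22. Itgam, the α chain of complement receptor 3, fell from 27.2, 28.5 and 28.0 to 21.3, 20.4 and 23.2 FPKM, and Itgax fell from 5.7 ± 0.473 to 3.73 ± 0.426. Cytip, which loosens integrin adhesion, fell from 18.7 ± 0.512 to 10.3 ± 0.731 FPKM. Itga5, described above, was therefore the exception among integrins, and Cd44 (0.19) was the other member to rise.

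Genes of the resting microglial state and of the lysosome fell by small amounts. Of 17 homeostatic microglia genes, 9 fell (52.9%, against 34.9% of all tested genes) and 2 rose, with a median of -0.11. The transcription factor Maf fell from 8.09 ± 0.519 to 5.48 ± 0.115. Spi1, which encodes the lineage factor PU.1, rose from 62.7 ± 1.63 to 74.6 ± 2.63 FPKM. Of 40 lysosomal genes, 23 fell (57.5%) and 3 rose, with a median of -0.12 and the largest decrease at -0.45 (Sgsh, a sulfamidase). Naglu, Gm2a and Arsb followed at -0.41, -0.41 and -0.38. Among 26 proteases, inhibitors and matrix genes 12 fell (46.2%, against 34.9% of all tested genes) and 6 rose (23.1%, near the 24.1% of all). The anticoagulant receptor Thbd fell from 2.79 ± 0.478 to 0.50 ± 0.101 FPKM (-1.33, or -2.27 with a pseudocount of 0.1), while F3, the tissue factor that starts coagulation, went from 1.54, 0.749 and 0.843 to 2.52, 3.33 and 3.14 FPKM (0.98 ± 0.115, or 1.49 with that pseudocount).

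**Figure D3:**
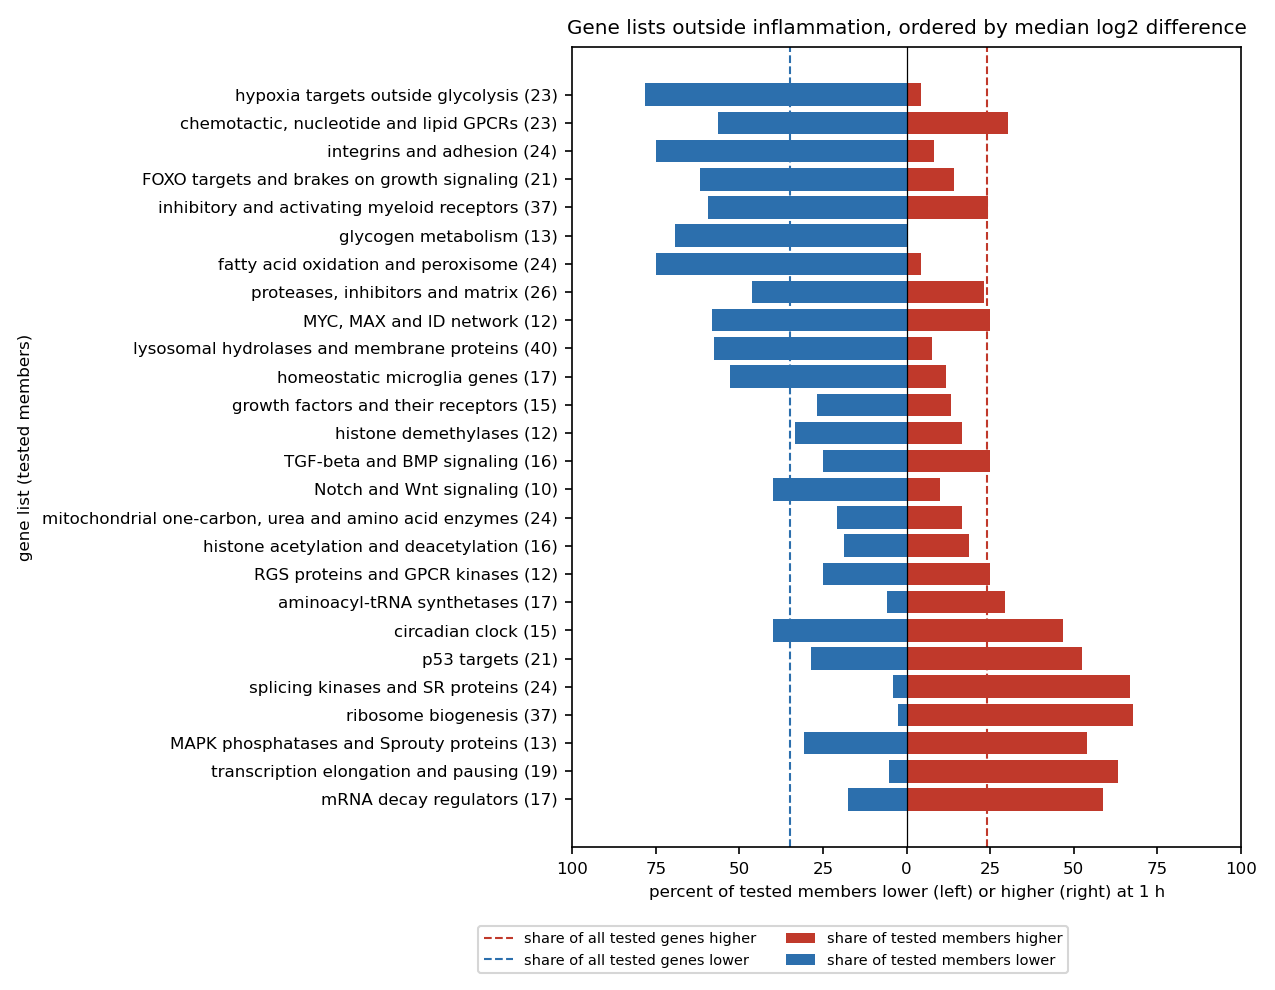
Percent of the tested members of each gene list shown that were lower (blue, to the left) or higher (red, to the right) at 1 h, with the number tested in parentheses and lists ordered by their median log2 difference; dashed lines give the shares over all tested genes, 34.9% and 24.1%. Hypoxia targets stand at 78.3% lower, and ribosome biogenesis at 67.6% higher.

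The machinery that makes and processes RNA rose by small amounts. Of 37 ribosome biogenesis genes, 25 rose (67.6%, against 24.1% of all tested genes) and 1 fell, with a median of 0.15. Under quantile normalization 19 rose and 2 fell, with a median of 0.10. Rrs1, a factor for the large ribosomal subunit, moved most, from 61.1, 63.4 and 62.4 to 115, 116 and 120 FPKM (0.90 ± 0.031). The next were Gnl2 (0.29), Utp3 (0.28) and the box C/D protein Nop58 (0.28), which went from 117, 127 and 128 to 156, 152 and 144 FPKM. The member that fell was Polr1a (-0.09, adjusted p = 0.0403 by limma), the largest subunit of RNA polymerase I, and no member was called lower in 7 alternatives, 5 of which left out a library.

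Of 24 splicing kinases and SR proteins, 16 rose (66.7%, against 24.1% of all tested genes) and 1 fell, with a median of 0.14. The kinase Clk1, which phosphorylates SR proteins, rose from 28.4 ± 0.926 to 34.4 ± 0.964 FPKM, and Rbm25 from 35.3 ± 1.95 to 42.7 ± 0.295. Tra2a (0.26) and Srsf11 (0.25) rose by like amounts, and Ddx17, a helicase, was the member that fell (-0.18). Of 19 genes of transcription elongation and pausing, 12 rose (63.2%) and 1 fell, with a median of 0.17. Ell2, of the super elongation complex, rose from 14.5, 15.4 and 15.4 to 26.4, 26.4 and 29.6 FPKM (0.82 ± 0.045), whereas its paralog Ell fell from 8.63 ± 0.474 to 7.43 ± 0.407. Ccnt1, the cyclin of P-TEFb, rose from 11.7 ± 0.121 to 15.3 ± 0.372 FPKM. In the deposited pathway annotation, 35 of 63 spliceosome genes rose (55.6%, against 24.1% of all tested genes) and 3 fell (median 0.10). Of 90 RNA transport genes, 42 rose (46.7%) and 8 fell (median 0.08). Aminoacyl-tRNA synthetases, which charge tRNAs for translation, were near 0. Of 17, 5 rose (29.4%, near the 24.1% of all tested genes) and 1 fell (5.88%, against 34.9%), with a median of 0.04. Under quantile normalization 2 rose and 4 fell, with a median of -0.04.

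Transcription factors, as annotated in the deposited table, changed in both directions: 110 of 369 rose (29.8%) and 142 fell (38.5%), shares near those of all tested genes (24.1% and 34.9%). At least 2-fold, 19 rose and 2 fell. The basic leucine zipper family supplied 7 of those 19, namely Maff, Junb, Atf3, Fosl2, Jun, Fosl1 and Nfe2l2. Junb, an AP-1 subunit, stood at 38.9, 34.8 and 38.4 FPKM before and 218, 221 and 224 at 1 h. Nfe2l2, which encodes the antioxidant factor NRF2, went from a mean of 70.4 to 161 FPKM (1.18). The Rel homology family had 6 of 9 members higher (66.7%) and 3 lower (33.3%, near the 34.9% of all tested genes). Its members Relb (1.53), Rel (1.40) and Nfkb2 (1.09) were at least 2-fold higher. By contrast, 0 of 6 STAT genes rose and 4 fell (66.7%, against 34.9% of all tested genes). Of 8 fork head genes, 5 fell (62.5%) and 1 rose. Of 26 helix-loop-helix genes, 14 fell (53.8%) and 7 rose (26.9%, near the 24.1% of all). Of 112 C2H2 zinc finger genes, 54 fell (48.2%) and 39 rose (34.8%), with a median of -0.11. Among them Klf6 rose (1.69), while Klf10, induced by TGF-β in other cells, went from 4.82, 4.55 and 5.16 to 1.38, 1.38 and 1.57 FPKM (-1.26 ± 0.062).

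Circadian clock genes also changed in both directions. The E-box repressors Bhlhe41 and Bhlhe40 fell, the first from 19.6, 18.4 and 18.5 to 7.0, 6.17 and 6.68 FPKM (-1.38 ± 0.055) and the second from 26.3, 24.6 and 23.2 to 12.6, 11.8 and 11.4 (-0.99 ± 0.049). The output factor Dbp (-0.46) and the repressor Cry2 (-0.40) fell, but Cry1 (0.24), Per1 (0.40), Clock (0.29) and Nfil3 (0.33) rose. Of 15 clock genes in all, 6 fell (40.0%, near the 34.9% of all tested genes) and 7 rose (46.7%, against 24.1%). Their median was 0.10, and -0.04 with no filter on level. Bhlhe40 is also known as a gene that hypoxia induces. In the p53 list, 11 of 21 rose (52.4%, against 24.1% of all tested genes) and 6 fell (28.6%, near the 34.9% of all). Plk2, Gadd45a (1.62), Plk3 (1.38), Fas (1.31) and the ubiquitin ligase Mdm2 (1.23) were at least 2-fold higher, whereas Gadd45g (-1.05, or -1.95 with a pseudocount of 0.1) and Gadd45b (-0.45) fell. Fas stood at 0.0544, 0.203 and 0.174 FPKM in untreated libraries, and its log2 difference was 3.04 with a pseudocount of 0.1. It passed the limit on level only through its LPS libraries, so its rise adds no independent support to the count of this list.

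The genes of the series title were measured in part. Plk2 rose, and the relatives Plk3 and Plk4 rose from 2.23 ± 0.244 to 7.42 ± 0.61 FPKM and from 7.44 ± 1.02 to 9.74 ± 1.04. Hsp90aa1, which encodes HSP90α, was not called, at 588, 639 and 631 FPKM without LPS and 627, 603 and 607 at 1 h. Cdc37, the cochaperone that brings kinases to HSP90, had a log2 difference of 0.09 (adjusted p = 0.0287 by limma), and its call was lost under quantile normalization, without the trend in the spread, and without untreated library 1 or 2 or 1 h library 2.

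Genes with large changes in either direction had shorter spans than genes not called. The span from the first to the last base of the gene, taken from RefSeq (GRCm38.p6) for 5635 of the 5643 genes, had a median of 24.3 kb over all tested genes. It was 9.4 kb for the 122 genes at least 2-fold higher and 10.8 kb for the 33 at least 2-fold lower, against 27.5 kb for genes not called. Intermediate changes lay between: 17.5 kb for increases and 17.1 kb for decreases of 0.5 to 1, and 22.8 and 25.6 kb for those under 0.5. Spans under 10 kb made up 51.6% of the large increases, 48.5% of the large decreases and 19.5% of the genes not called. Span depends on level, so the genes were divided by their mean FPKM. At 5 to 20 FPKM the medians were 13.6 kb for 50 large increases, 4.75 kb for 17 large decreases and 35.8 kb for 941 genes not called. Above 20 FPKM they were 5.56 kb for 54 large increases and 18.2 kb for 911 genes not called, with 3 large decreases there. These are descriptions of gene models, and RNA synthesis and decay were not measured.

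**Figure D4:**
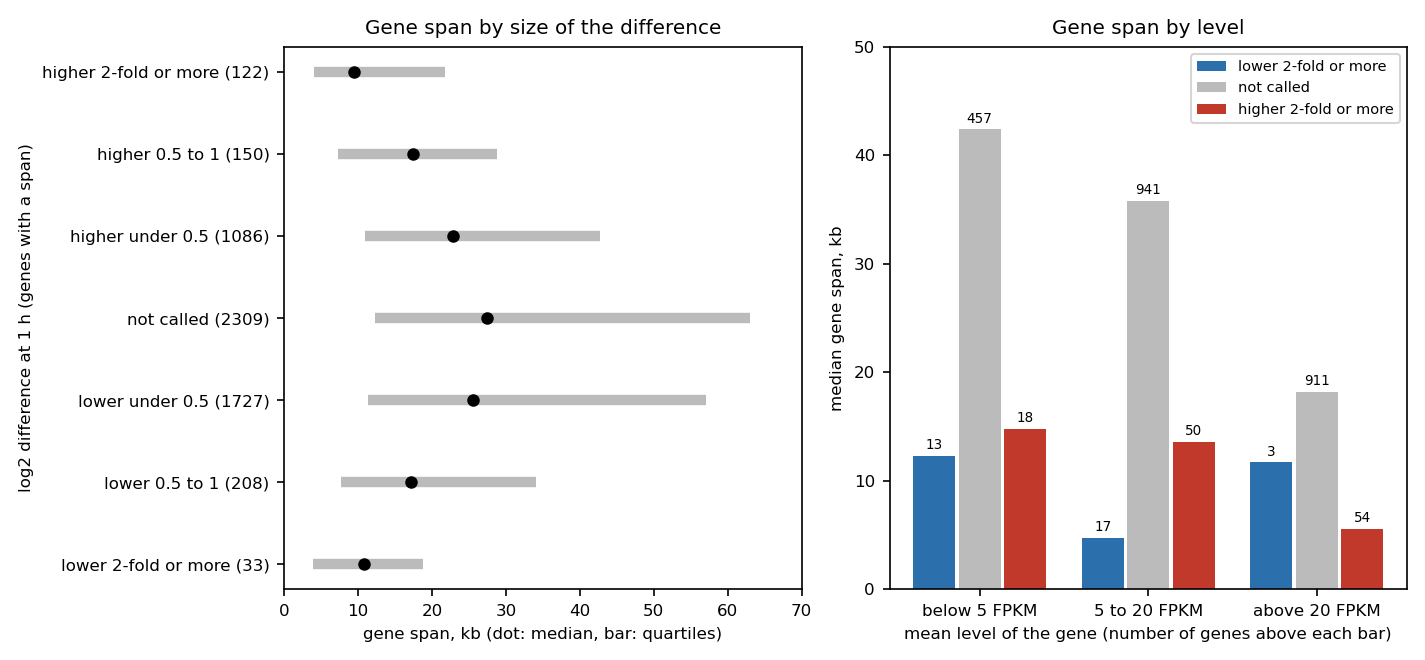
Gene span in kb, left as the median (dot) and quartiles (bar) for classes of the log2 difference at 1 h, right as the median (bar) for genes divided by mean FPKM, with the number of genes above each bar. The medians are 9.4 kb and 10.8 kb in the outermost classes and 27.5 kb in genes not called.

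Promoter sequences are shown for genes in which a match to the NF-κB consensus was found, 6 with the largest increases and 4 with the largest decreases that had one, so that the same motif can be read in both directions of change. The windows hold 30 bases of the RefSeq promoters (GRCm38.p6, from 250 bases before to 50 after the start site), written 5′ to 3′ on the strand of the gene, with the match in capitals; matches on either strand were counted.
Cxcl2 (chr5:90903792-90903821, + strand): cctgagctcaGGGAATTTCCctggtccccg
Cxcl10 (chr5:92349029-92349058, - strand): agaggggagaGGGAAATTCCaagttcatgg
Ccrl2 (chr9:111057555-111057584, - strand): actttcccccGGGGCTTCCCctgagcgggg
Nfkbia (chr12:55492657-55492686, - strand): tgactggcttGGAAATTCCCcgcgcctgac
Nlrp3 (chr11:59541373-59541402, + strand): ggcttctgcaGGGAACCCCCgggaattctg
Pde4b (chr4:102569922-102569951, + strand): aataaataaaGGAGACCCCCtagcatcagt
Tnfrsf9 (chr4:150927946-150927975, + strand): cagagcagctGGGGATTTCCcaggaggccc
Sema4c (chr1:36558548-36558577, - strand): ctggagcgtgGGGAAGCCCCtcaacccttc
Slc37a4 (chr9:44396744-44396773, + strand): ctacaattcaGGGAGTTTCCtgaatctgca
Pard6b (chr2:168080773-168080802, + strand): ggctgtgggcGGGGCTTCCCaaccacgagg

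The first 6 genes rose, by 5.59 (Cxcl2), 5.23 (Cxcl10), 3.32 (Ccrl2), 3.23 (Nfkbia), 3.16 (Nlrp3) and 3.14 (Pde4b), and the last 4 fell, by 1.21 (Tnfrsf9), 1.15 (Sema4c), 0.68 (Slc37a4) and 0.58 (Pard6b). Cxcl2 and Cxcl10 encode chemokines, Ccrl2 a chemokine-binding receptor, Nfkbia the inhibitor IκBα, Nlrp3 an inflammasome sensor and Pard6b a cell polarity protein. With a pseudocount of 0.1 the value of Ccrl2, at 0.153, 0.168 and 0.221 FPKM in untreated libraries, was 5.29. Counted from the start site, the match began at -97 in Cxcl2, -29 in Nfkbia and -43 in Tnfrsf9. The promoter of Tnfrsf9 gave 3 matches over both strands, but these overlap within the window shown and are not separate sites. Ccrl2 and Pard6b carried the same 10 letters and moved in opposite directions. All windows were picked because they hold a match, so this pair cannot show whether the motif goes with direction. Not every chromosome was searched for them, so the largest changes are those on the chromosomes searched. A match to this consensus was present in 4.51% of the 32851 promoters in the table and in 5.73% of the 5954 promoters of tested genes. A promoter was found for 81.8% of the tested genes and for 95 of the 122 genes at least 2-fold higher (77.9%), under the 80% set as the minimum, so a comparison of that share between classes of change is void. A match is a description of letters and not a measured binding site.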

How the data were processed

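RNA was sequenced from BV2 cells, untreated or after 1 h or 12 h with LPS, with 3 libraries each. Per the labels, TRIzol was used to isolate RNA, and a stranded mRNA kit to build libraries. Per the submitters' processing notes, Trimmomatic, HISAT2, Cufflinks, HTSeq and DESeq were used, with no versions or roles; the notes name GRCh38, a human build, although the genes are mouse genes, which leaves the build of the values unknown, and no position was taken from it. The authors deposited 1 table of FPKM per gene. Per the file headers, further columns give a p-value, a q-value, a rank score and a flag. All 6462 genes carry the flag 1, deposited q-values reach 0.0999, and none of these columns was used to call genes. FPKM are not counts, the counting strand is not given in the sources used here, and no count test was run.

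Genes with a mean of at least 1 FPKM over the 9 libraries were tested, leaving out 819. Genes low in untreated cells could pass through LPS libraries alone, which favors increases among them. Log2(FPKM + 1) was fitted with 1 mean per group over all 9 libraries with limma 3.58.1 in R 4.3.3 (eBayes with trend), and Benjamini-Hochberg adjustment covered the 5643 genes. A pseudocount of 1 understates changes of low genes, and the adjusted p-values apply to these preselected genes alone. Tested on simulated data with 200 of 5643 genes changed, the fit called 0% of those changed by 0.1 (log2), 86.5% at 0.3 and 100% at 1. In the data 3330 genes were called, with increases as small as 0.06, so these shares do not give the sensitivity there. Residuals of libraries with the same number in the 2 groups correlated at -8.69e-05, -0.0666 and 0.00444, so no shared effect of the number was seen. The labels do not say whether these libraries were prepared in pairs.

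The text names the 20 increases and 30 decreases of largest size with no overlap between groups, at least 5 FPKM in the higher group and an assigned symbol, outside the 8 inflammatory lists; up to 4 members per list by size; the 8 largest gains and losses in FPKM; the genes with promoter windows, taken among genes that met the same criteria, inflammatory lists included; and those of the title. Chosen after their values were seen were Atf3, Bnip3l, C3ar1, Ccr1, Cd44, Clock, Cry1, Ddx17, Dusp18, Dusp22, Dusp7, Egln1, Ell, F3, Fosl1, Fosl2, Foxo1, Foxo3, Foxo4, Gadd45b, Gadd45g, Hif1a, Ier5l, Jun, Klf10, Klf6, Lpar5, Mdm2, Nfe2l2, Nfil3, Nfkb2, Per1, Polr1a, Rel, Relb, Rictor, S1pr1, Tob1, Tsc22d3, Vegfa and Zfp36l1. Dusp1 and Dusp2 were also chosen in that way, and are left out of the counts of such genes given below. The comparison and the 44 lists (1226 entries) were chosen with earlier results of these data known, so a list's direction is not independent evidence. Use of the deposited pathway and transcription factor annotation was chosen after the file was seen. List counts cover tested members only, and 1 list is not reported here. Of 30 long noncoding RNAs on a list, 0 were in the table. RefSeq entries were matched by gene ID.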

Additional observations from a re-analysis of the deposited data

How the results depend on the processing

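The fit was repeated with other pseudocounts (0.1, 0.5), without a filter or with 1 at 5 FPKM, with quantile or median-of-ratios scaling, with eBayes lacking a trend, on 6 libraries only, with replicate blocks, and without each compared library. Genes at least 2-fold lower numbered 33, but 71 at a pseudocount of 0.1 and 20 under the filter at 5 FPKM, which tests fewer genes. Leaving out a library gave 1207 to 1280 genes higher, 1749 to 1837 lower, 120 to 126 at least 2-fold higher and 32 to 38 at least 2-fold lower. With the library number as a replicate block the counts were 1338, 1954, 122 and 33, though the labels give no pairing by number. The share of increases among called genes stayed between 38.6% and 46.9%, and the median over all genes between -0.04 and -0.01. Of the 193 named genes that were called, 11 lost their call or direction under some alternative: Hes6, Kdm4c, Kdm3a, Tars, Nars, Yars, Aldh1l2, Mthfd2, Cdc37, Fth1 and Eno1. So did 2 of the 40 called genes chosen after their values were seen, Foxo4 and Polr1a. Fth1 and Eno1 had a difference of 0.0 under quantile normalization, which follows from its construction, and Hsp90aa1, never called, had 0.01 without untreated library 2. Medians near 0 changed sign under quantile normalization in the lists of TGF-β signaling (-0.05 to 0.03), histone acetylation (-0.01 to 0.03), tRNA synthetases (0.04 to -0.04) and interferon-stimulated genes (-0.02 to 0.02) and, with no filter on level, in those of RGS proteins (-0.01 to 0.01) and the circadian clock (0.10 to -0.04); under the filter at 5 FPKM 3 medians of -0.05 to -0.01 crossed 0. The cause was not tested. The table gives no read counts, so counting error is unknown.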
